A study of Mus musculus with 4 samples.

Results

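Myeloid progenitors, the marrow cells that give rise to neutrophils and monocytes, were sought among the cells of mouse tibial and femur epiphyses by the genes for 4 granule proteins, Elane, Mpo, Prtn3 and Ctsg. A barcode (the tag of 1 captured droplet) was a member when it had 500 genes or more, at most 15% mitochondrial UMIs, and 10 or more UMIs of these 4 genes together per 10000 of its own. A UMI marks 1 captured RNA molecule. The rule took 562 of 30952 barcodes that passed the filter, out of 39898 in the files. There were 276 and 64 members in the mutant libraries at days 19 and 13, and 199 and 23 in the wild-type libraries. Some members carried markers of basophils, eosinophils, later neutrophil stages or other lineages, as described below. The members were chosen on their own levels of these genes, so those levels, and every contrast with other barcodes, are given as descriptions with no test.

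Granulocytes and monocytes arise in the marrow from common progenitors. During the promyelocyte stage these cells make serine proteases and myeloperoxidase and pack them into the primary (azurophil) granules. They later switch to the proteins of the secondary granules, such as Camp and Ltf, and then to those of the mature neutrophil. Ms4a3, a membrane protein, marks the granulocyte and monocyte branch of blood, and it was not used by the rule.

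The mutant mice carried Sox9fl:fl and AcanCreERT2/+, a floxed Sox9 with a tamoxifen-dependent recombinase driven by a gene of cartilage cells, and the others were wild type; both were sampled at postnatal days 19 and 13, as the sample labels have it (the series' design text also names an older age and a further genotype). Each genotype and age is 1 library of cells released with Liberase and captured with Chromium version 3 chemistry, and the number of mice in a library is not stated in the labels, nor are the tamoxifen schedule, the strain and the floxed exons. Acan is not a gene of blood cells, and Sox9, the transcription factor of cartilage that the alleles target, had 33 and 24 UMIs over all members in the mutant libraries at days 19 and 13 and 28 and 5 in the wild-type libraries. Over all barcodes kept, Sox9 stood at 107 and 151 counts per 1000000 UMIs (CPM) in the mutant libraries at days 19 and 13 and at 175 and 315 CPM in the wild-type libraries; whether the counted 3′ end lies in the deleted part is not given, so this level does not check the deletion. The libraries held 70507107 to 76080803 UMIs. Each pair of libraries shared 19 to 44 barcodes (0.211% to 0.489%), and 0 members were found in more than 1 library. With 1 library per group there is no spread between mice, and the intervals below cover counting error only.

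The 5 promoters are shown first because 4 of these genes define the members and Ms4a3 was the marker used to check them. Each window runs from 250 bases before to 50 bases after the RefSeq start (GRCm38.p6), 5′ to 3′ on the gene's strand, and capitals mark GAGGAA, a core of sites bound by PU.1, and TTNNGNAA, a form of the C/EBP motif, on either strand. Elane (chr10:79886062-79886361, plus strand) and Prtn3 (chr10:79879417-79879716, plus strand) are neighbours on chromosome 10. Mpo lies at chr11:87793534-87793833 (plus strand), Ctsg at chr14:56102525-56102824 (minus strand) and Ms4a3 at chr19:11640802-11641101 (minus strand).
Elane: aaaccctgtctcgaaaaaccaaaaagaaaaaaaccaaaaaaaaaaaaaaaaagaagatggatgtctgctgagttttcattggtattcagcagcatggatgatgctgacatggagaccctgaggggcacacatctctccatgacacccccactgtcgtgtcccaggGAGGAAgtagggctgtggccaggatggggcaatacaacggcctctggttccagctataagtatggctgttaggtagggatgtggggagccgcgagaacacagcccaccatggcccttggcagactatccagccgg
Prtn3: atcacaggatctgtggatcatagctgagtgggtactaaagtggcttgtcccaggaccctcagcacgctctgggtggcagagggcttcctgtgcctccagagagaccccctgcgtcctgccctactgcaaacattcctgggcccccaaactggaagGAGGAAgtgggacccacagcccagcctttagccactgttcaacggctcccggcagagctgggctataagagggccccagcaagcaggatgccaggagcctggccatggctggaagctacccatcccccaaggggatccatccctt
Mpo: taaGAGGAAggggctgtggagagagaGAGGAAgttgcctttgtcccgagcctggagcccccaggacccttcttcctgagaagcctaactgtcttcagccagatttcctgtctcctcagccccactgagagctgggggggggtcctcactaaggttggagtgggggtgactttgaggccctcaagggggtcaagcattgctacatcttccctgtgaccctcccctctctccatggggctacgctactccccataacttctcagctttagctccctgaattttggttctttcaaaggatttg
Ctsg: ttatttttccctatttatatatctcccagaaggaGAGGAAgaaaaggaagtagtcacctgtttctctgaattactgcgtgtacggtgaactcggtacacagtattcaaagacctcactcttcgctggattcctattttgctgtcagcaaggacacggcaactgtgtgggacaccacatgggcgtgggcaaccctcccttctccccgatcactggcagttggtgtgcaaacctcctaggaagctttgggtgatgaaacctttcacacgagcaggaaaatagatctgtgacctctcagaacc
Ms4a3: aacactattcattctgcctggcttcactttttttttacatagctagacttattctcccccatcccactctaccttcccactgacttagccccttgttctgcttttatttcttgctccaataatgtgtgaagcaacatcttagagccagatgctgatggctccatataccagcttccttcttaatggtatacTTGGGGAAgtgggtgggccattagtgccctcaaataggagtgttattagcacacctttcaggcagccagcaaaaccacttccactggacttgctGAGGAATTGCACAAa
GAGGAA was found in all 5 windows, and 28.3% of the 32851 RefSeq promoter windows of this length hold it. TTNNGNAA was found in the Ms4a3 window only, with 2 matches, and in 40.7% of all windows. The MYB core AACNG, not shown in capitals, was found in 4 of the 5 windows and in 80.3% of all. The matches describe these letters and do not show binding.

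Prtn3, proteinase 3, was the most abundant of the rule genes over the members as a whole. UMIs count molecules at the 3′ end, so levels of different genes are molecule counts with no correction for length. Prtn3 stood at 6305 and 5297 CPM in the mutant members at days 19 and 13 and at 6841 and 4702 CPM in the wild-type members. Elane, neutrophil elastase, stood at 4024 and 2894 CPM in the mutant members and at 5525 and 1552 CPM in the wild-type members, with both day 19 values above both day 13 values. Mpo, myeloperoxidase, which makes hypochlorous acid, varied least of the 4, at 3222 and 2575 CPM in the mutant members and 3293 and 3394 CPM in the wild-type members. Ctsg, cathepsin G, was at 2672 and 2386 CPM in the mutant members and 2356 and 3194 CPM in the wild-type members. All 4 genes had a UMI in 335 members (59.6%), and 35 members had only 1 of them. Prtn3 led in 297 members, Mpo in 119, Elane in 64 and Ctsg in 54, with ties in the other 28.

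At full depth most members held a Ms4a3 UMI, but with barcodes thinned to 2000 UMIs most day 13 members did not. Those day 13 shares had wide intervals (28.1% to 54.3% in the mutant, 14.6% to 57.0% in the wild type). At 4000 UMIs they were 50% in the mutant and 60% in the wild type. A Ms4a3 UMI was found in 360 of 562 members (64.1%). With each barcode thinned to 2000 UMIs it was found in 50.2% and 40.7% of mutant members at days 19 and 13 and in 57.5% and 33.3% of wild-type members, leaving out 19 and 5 shallower mutant members and 25 and 2 shallower wild-type members. Among B cell barcodes thinned the same way the shares were 0.419% and 0.142% in the mutant libraries, 0.171% in the wild-type library at day 19 and 0 of 237 at day 13, which allows up to 1.27% (3 counts of the total). Neutrophil barcodes (defined below) thinned the same way had shares of 1.52% and 1.82% in the mutant libraries and 6.59% and 1.96% in the wild-type libraries. The Ms4a3 level was 684 and 568 CPM in the mutant members and 859 and 480 CPM in the wild-type members.

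The share of members with Ms4a3 followed the summed level of the rule genes. It was 100% of the 169 members at 200 or more per 10000, 72.7% of the 183 members from 50 to 200, and 27.6% of the 210 members from 10 to 50. At the threshold itself, 5 of the 32 members at 10 to 12 held a Ms4a3 UMI, against 1 of the 73 barcodes just outside at 8 to 10. The median depth was 5150.5 UMIs just inside and 1209 UMIs just outside, so the barcodes outside were also shallower. Prss57, a serine protease gene on chromosome 10 near Elane and Prtn3, followed the same order, with 313 to 434 CPM over the libraries in the highest range, 86.6 to 112 CPM in the middle and 29.0 to 34.2 CPM in the lowest. Cd34, a surface protein of early progenitors, was lowest in the highest range in every library, at 11.1 to 71.2 CPM, against 58.6 to 115 CPM in the middle and 83.2 to 159 CPM in the lowest. Between the middle and the lowest range its order differed by age: at day 19 it was higher in the middle range in both genotypes, and at day 13 in the lowest. A further 98 and 40 barcodes in the mutant libraries and 86 and 13 in the wild-type libraries met the summed level but not the filter, most of them with fewer than 500 genes.

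Members made up 2.78% of kept barcodes in the mutant library at day 19 (95% exact Clopper-Pearson interval 2.46 to 3.12) and 0.861% at day 13 (0.664 to 1.10). In the wild-type libraries they made up 2.75% at day 19 (2.38 to 3.15) and 0.363% at day 13 (0.230 to 0.544). Both day 19 libraries lay above both day 13 libraries, and the intervals of the genotypes overlapped at day 19 but not at day 13, where the mutant share was higher. Of the blood barcodes alone (members with neutrophil, monocyte and B cell barcodes) the shares were 6.25% and 3.43% in the mutant libraries at days 19 and 13 and 4.49% and 2.50% in the wild-type libraries. On that base the genotypes' intervals did not overlap at day 19 (5.56 to 7.01 in the mutant, 3.90 to 5.15 in the wild type) and did at day 13. The order against neutrophils differed again, with 17.3 and 11.9 members per 100 neutrophil barcodes in the mutant libraries and 38.6 and 7.85 in the wild-type libraries. No test of the shares can be made with 1 library per group, and how dissection and digestion entered them was not tested. Median depth was 10920.5 and 13864 UMIs in mutant members and 16258 and 12909 UMIs in wild-type members.

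**Figure D1:**
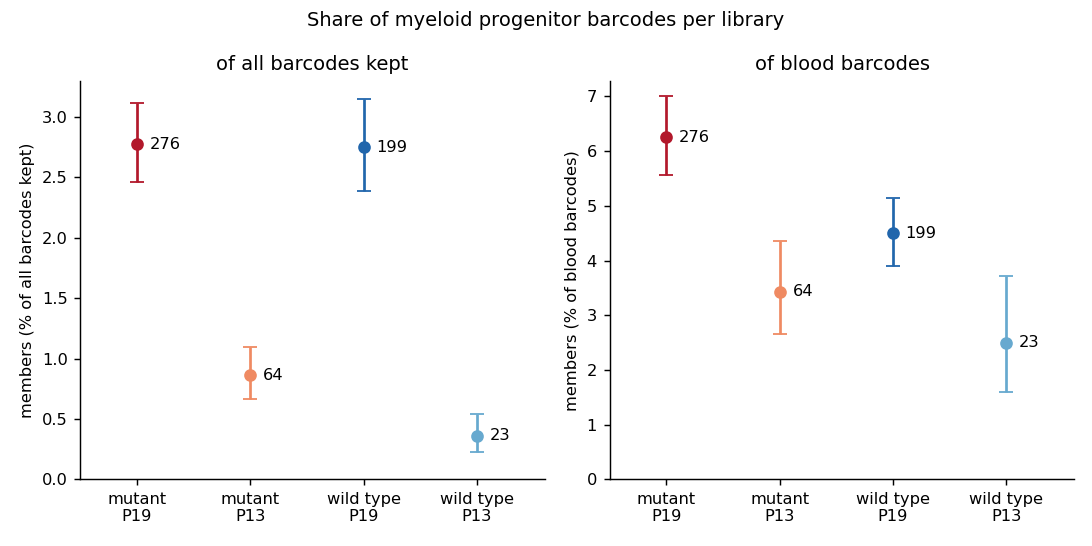
Share of myeloid progenitor barcodes in each library, in percent of all kept barcodes (left) and of blood barcodes (right); points are libraries, bars are 95% exact binomial intervals and figures beside the points are member counts. The day 19 libraries, at 2.78% (mutant) and 2.75% (wild type), lie above the day 13 libraries on the left, and the mutant library lies highest on the right at 6.25%.

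The members were not 1 uniform population. They were divided into 7 exclusive states by marker sums per 10000 UMIs, with gates chosen after the values were seen. A member was other-lineage when it held 10 or more of the B cell genes, 10 or more of a set of erythroid genes, or 100 or more of the cartilage, bone and connective tissue genes. The rest were basophil-mast at 20 or more of Mcpt8, Prss34, Ms4a2 and Cpa3, then eosinophil at 20 or more of Prg2 and Epx, then S100-high at 100 or more of S100a8 and S100a9. What remained was monocyte-marked at 10 or more of Ly6c2, Ccr2, Ms4a6c and F13a1, early-marked at 3 or more of Cd34, Kit, Flt3 and Sox4, and otherwise granule-only. The genes of a gate are high in its state by choice. There were 167 S100-high (29.7%), 142 monocyte-marked (25.3%), 72 early-marked (12.8%), 47 basophil-mast (8.36%), 43 granule-only (7.65%) and 3 eosinophil members (0.534%), and 88 were other-lineage (15.7%). Pooled over the libraries, Ms4a3 stood at 1540 CPM in granule-only, 1300 CPM in S100-high and 830 CPM in eosinophil members. Other-lineage (584 CPM) and basophil-mast members (397 CPM) held more of it than monocyte-marked (370 CPM) and early-marked ones (241 CPM).

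The make-up by state was similar in scale across the libraries, with wide intervals where members were few. The wild-type library at day 13 held 5 S100-high, 4 monocyte-marked, 4 early-marked, 3 granule-only and 2 basophil-mast members. S100-high members were 29.3% and 20.3% of mutant members at days 19 and 13 and 34.2% and 21.7% of wild-type members. Monocyte-marked members were 26.1% and 32.8% of mutant members and 22.6% and 17.4% of wild-type members. Early-marked members were 13.0% and 10.9% of mutant members and 12.6% and 17.4% of wild-type members. Within each of the 7 states the exact intervals of mutant and wild-type members overlapped at both ages.

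**Figure D2:**
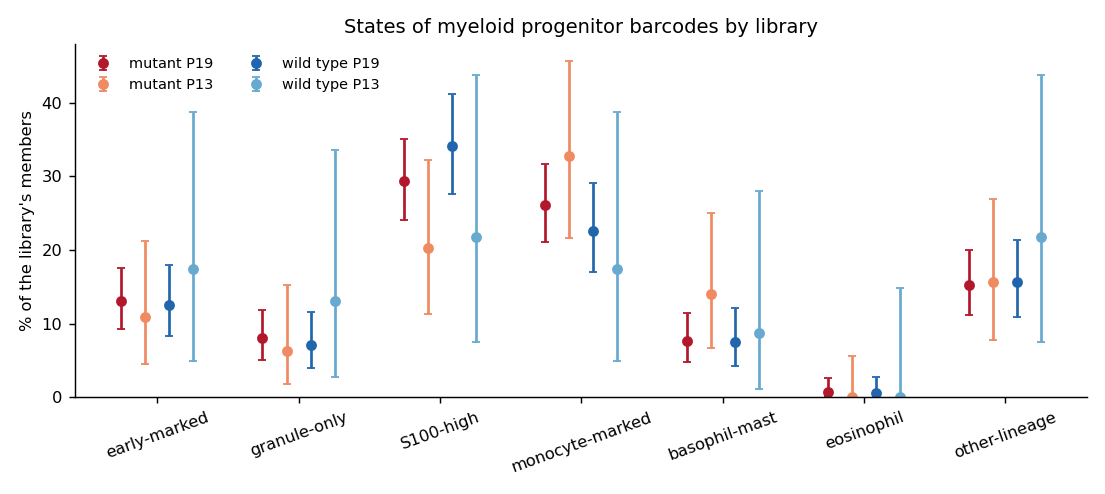
States of the members in each library, in percent of the library's members, with 95% exact binomial intervals. S100-high members run from 20.3% to 34.2% over the libraries and the wild-type day 13 library, with 23 members, has the widest bars.

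Early-marked members held the rule genes at a low level and led with Mpo. Mpo was highest of the 4 and Elane lowest in every library, with Mpo at 2490 and 1145 CPM in the mutant early-marked members at days 19 and 13 and 2911 to 3358 CPM in the wild-type ones. Elane stood at 544 CPM in 36 mutant members at day 19, at 0 UMIs in 7 at day 13, and at 891 and 173 CPM in the wild-type members. Of the 8 listed genes of multipotent cells outside the gate, Meis1, Hlf and Cd27 were highest there in values pooled over the libraries, while the other 5 were higher in another state, such as Gata2 in basophil-mast and Myb in eosinophil members. Meis1, a homeobox partner of the Hox factors, was at 34.7 CPM, against 4.75 CPM or less in the other 6 states. Hlf, a transcription factor of stem cells, was at 20.3 CPM, and Npm1 and Ncl, nucleolar proteins of ribosome assembly, were at 3273 and 2042 CPM. No Fcnb UMI, and 32 Camp UMIs, were found in the early-marked members.

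Granule-only members held all 4 rule genes together at high levels. There were 22 and 4 of them in the mutant libraries at days 19 and 13 and 14 and 3 in the wild-type libraries, so the day 13 values rest on few barcodes. Prtn3 was highest of the 4 in every library, at 12233 and 11321 CPM in the mutant granule-only members at days 19 and 13 and at 10683 and 8459 CPM in the wild-type ones. Ctsg reached 6329 and 6256 CPM in the mutant members and 6051 and 6710 CPM in the wild-type members, the most even of the values. Ms4a3 was at 1662 and 1440 CPM in the mutant members and 1517 and 1247 CPM in the wild-type members. Camp, the cathelicidin of the secondary granules, stayed at 64.7 CPM or less in all 4 libraries. Of the listed genes of protein folding and export, Sdf2l1 (307 CPM), Manf (497 CPM) and Sec61b (1659 CPM) were highest there, pooled over the libraries. The chaperone genes Calr, Hspa5 and Hsp90b1 were higher in basophil-mast members, at 1571, 1165 and 974.9 CPM, than in granule-only members, at 1448, 1023 and 722 CPM, and Dnajb9 was low in granule-only members, at 26.6 CPM.

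S100-high members kept Prtn3 and Elane while the order of the other rule genes turned round. Elane was at 8172 and 5730 CPM in mutant S100-high members at days 19 and 13 and at 10934 and 4771 CPM in wild-type ones, second to Prtn3 in every library. Ctsg was lowest of the 4 in every library, at 2963 and 2705 CPM in the mutant members and 1784 and 1016 CPM in the wild-type members. Camp stood at 24955 and 31490 CPM in the mutant members and at 26797 and 42094 CPM in the wild-type members. Fcnb, ficolin B, was at 1068 and 1377 CPM in the mutant members and 2293 and 1567 CPM in the wild-type members, and Cebpe, the transcription factor of secondary granule genes, at 361 and 493 CPM against 647 and 465 CPM. Neutrophil barcodes pooled over the libraries held less, with Fcnb at 183 CPM and Cebpe at 196 CPM. Serpinb1a, an inhibitor of the granule proteases, stood at 985 CPM in S100-high members and 205 CPM in neutrophil barcodes. Of the members called doublets, 5 were S100-high and 26 were other-lineage.

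Ltf, lactoferrin, differed among the libraries more than the other secondary granule genes. S100-high members held it at 475 and 602 CPM in the mutant libraries at days 19 and 13, against 14.6 CPM in the wild-type library at day 19 and 1051 CPM at day 13. Over all members it had 437 and 112 UMIs in the mutant libraries and 16 and 61 in the wild-type libraries. Neutrophil barcodes had the same low library, with 3670 and 2771 CPM in the mutant and 102 and 2805 CPM in the wild type. The genotype difference over all members was 2.03 ± 0.605 on the log2 scale (SE, n = 4 libraries; edgeR quasi-likelihood test, adjusted p = 0.113) and did not pass.

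Monocyte-marked members held Prtn3 first in every library, at 5486 and 4626 CPM in mutant members at days 19 and 13 and 5389 and 4948 CPM in wild-type members. Irf8, the transcription factor that directs progenitors to the monocyte and dendritic branch, was at 383 and 485 CPM in the mutant members and 448 and 346 CPM in the wild-type members. In S100-high members it was at 55.5 and 32.5 CPM in the mutant and at 11.5 and 0 CPM in the wild type. Csf1r, the receptor for the macrophage growth factor, was at 79.9 and 85.4 CPM in the mutant monocyte-marked members and 67.9 and 55.3 CPM in the wild-type ones, and Ly86 followed the same states. Ctsc, the protease that activates the granule proteases, stood at 181 CPM pooled over the libraries, against 63.2 CPM or less in the other 6 states. Early-marked members of the mutant libraries also held Irf8, at 211 and 219 CPM, against 91.0 and 0 CPM in the wild-type ones, where 25 and 4 barcodes were counted.

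Basophil-mast members met the rule mainly through Ctsg and Mpo. There were 21 and 9 of them in the mutant libraries at days 19 and 13 and 15 and 2 in the wild-type libraries. Ctsg was highest of the 4 in every library, at 3610 and 3420 CPM in mutant basophil-mast members at days 19 and 13 and 4132 and 9622 CPM in wild-type ones. Prtn3 was at 1268 and 134 CPM in the mutant members and 174 and 112 CPM in the wild-type members. Elane was at 739 CPM in the mutant members at day 19, at 8.28 CPM in the wild-type members at day 19, and had 0 UMIs in both day 13 libraries. Pooled over the libraries, they held Gata2, a factor of the mast cell and basophil branch, at 722 CPM, Cd63, a granule membrane protein, at 1890 CPM, Il3ra, the receptor for interleukin 3, at 193 CPM, and the chemokine gene Ccl3 at 1989 CPM. Mcpt8 and Prss34, basophil proteases of their gate, are among the genes furthest above neutrophil and monocyte barcodes over all members. The 3 eosinophil members held Prg2, the major basic protein of eosinophil granules and a gene of their gate, at 22379 CPM.

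**Figure D3:**
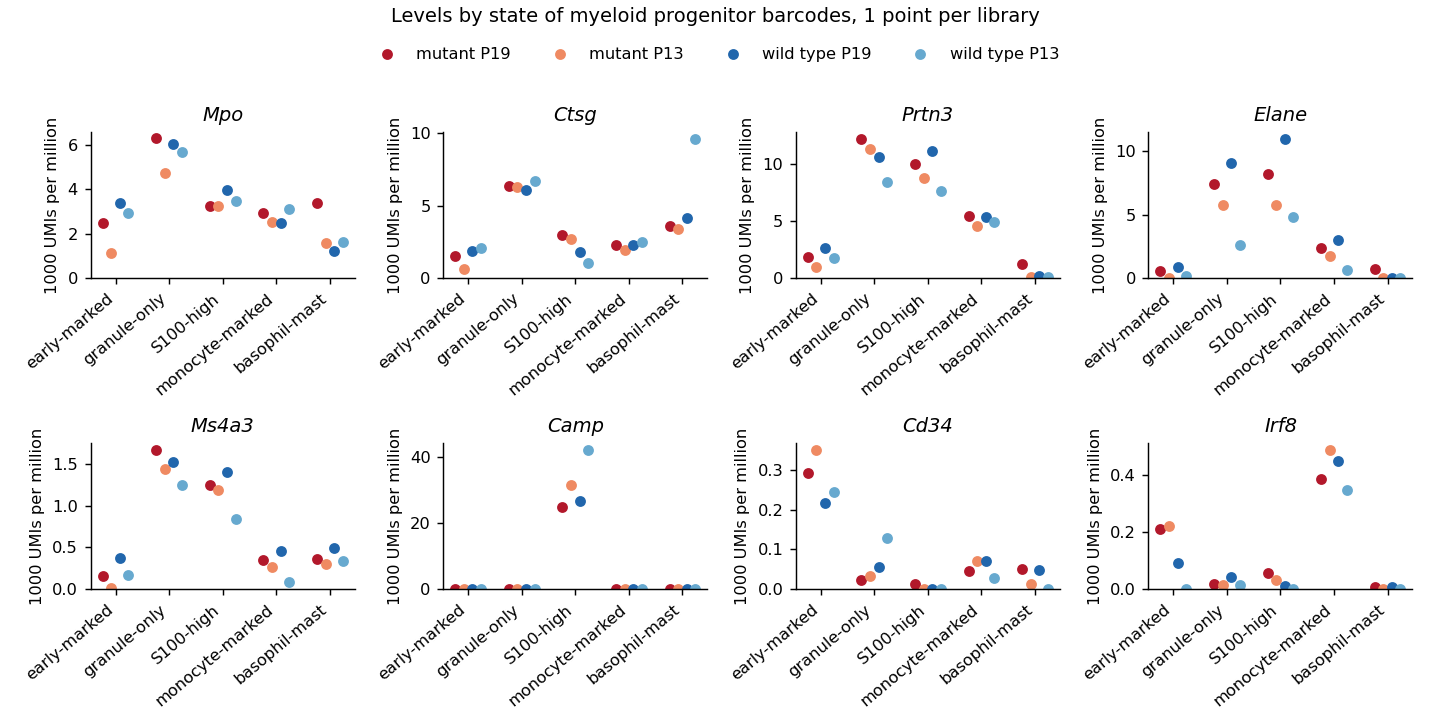
Levels of 8 genes in 5 states of the members, in 1000 CPM, with 1 point per library. Ms4a3 is highest in granule-only members in all 4 libraries, Camp appears in S100-high members (24955 to 42094 CPM) and Irf8 in monocyte-marked members. At day 13 the granule-only points rest on 4 mutant and 3 wild-type barcodes.

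Neutrophil barcodes held 100 or more of S100a8 and S100a9 per 10000 and were not members. Against them, members carried more Ms4a3 and Prss57 and more of the machinery of growth, and less of the late genes. S100a8 and S100a9 are themselves late genes, so their part of the contrast was set by the choice of barcodes. Each other listed late gene was also lower in members than in neutrophil barcodes in every library. The primary granule list without the rule genes had a higher sum in members only in the wild-type library at day 19. Its 7 genes summed to 2635 and 2494 CPM in mutant members at days 19 and 13 and 2978 and 2515 CPM in wild-type members. In neutrophil barcodes they summed to 3188 and 2778 CPM and 2616 and 2640 CPM. Srgn made up most of the members' sum, at 1329 to 1498 CPM, against 1984 to 2558 CPM in neutrophil barcodes. Prss57, Ctsc, Serpinb1a and Cst7 were each higher in members in every library, and Cd63 in the wild-type libraries only. Bpi had 1 UMI in members. Ms4a3 was 16.4 to 42.2 times higher in members over the 4 libraries and Prss57 was 12.9 to 34.0 times higher. Nkg7, a granule membrane protein best known from natural killer cells, was 36.0 to 57.1 times higher. It stood at 419 and 348 CPM in mutant members and 524 and 259 CPM in wild-type members. Of the other listed T and natural killer cell genes, Cd3e and Cd3g had 0 UMIs in members, while Cd3d, Trbc1, Trbc2, Klrd1 and Ccl5 had some. Ctla2a, a cysteine protease inhibitor, and Sdf2l1, of the endoplasmic reticulum, were among the 10 genes with the largest least ratio, as were Mcpt8, Prss34, Cpa3, Cst7 and BC035044. The summed level of 12 ribosome biogenesis genes was 4049 to 5596 CPM in members, against 762 to 1318 CPM in neutrophil barcodes. The 15 S phase genes summed to 1702 to 2079 CPM, against 366 to 744 CPM. The sum of the 10 secondary granule genes ran the other way, at 12889 to 15885 CPM in members and 40061 to 74201 CPM in neutrophil barcodes. Of these genes Fcnb alone was higher in members, and it was so in every library. Camp in S100-high members was also above the neutrophil barcodes of the same library in every library, where those held 14163 to 26239 CPM.

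With each barcode thinned to 2000 UMIs, Mki67, which is made by cycling cells, had a UMI in 28.8% and 27.1% of mutant members at days 19 and 13 and in 31.0% and 23.8% of wild-type members. Among neutrophil barcodes the shares were 12.6% and 8.48% in the mutant libraries and 14.1% and 7.84% in the wild-type libraries. B cell barcodes were above members in every library at this depth, at 50.6% and 36.4% in the mutant and 41.2% and 26.2% in the wild type. In the wild-type library at day 13 the members' share rested on 5 of 21 barcodes (interval 8.22% to 47.2%). At 4000 UMIs the order in that library was reversed, with 50% of members and 44.9% of B cell barcodes. Before thinning, the members' shares were 57.2% and 67.2% in the mutant and 75.4% and 73.9% in the wild type. Of the 6 states other than eosinophil, Mki67 was lowest in granule-only members in every library, at 34.2 and 66.2 CPM in the mutant and 69.3 and 71.7 CPM in the wild type. At day 13 these values rest on 4 mutant and 3 wild-type barcodes. Cd34 had a UMI in 10.1% and 8.47% of thinned mutant members and 10.9% and 9.52% of wild-type members, against 0.303% or less of neutrophil barcodes. In B cell barcodes the shares were 1.51% and 3.27% in the mutant and 0.642% and 15.6% in the wild type, the last above the members of that library. The members' share there rested on 2 of 21 barcodes, and at 4000 UMIs the shares were 25.7% of B cell barcodes and 25% of members.

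Against monocyte barcodes (10 or more of Ly6c2, Ccr2, Ms4a6c and F13a1), Ms4a3 stood at the levels given above in members and had at most 1 UMI in each library's monocyte barcodes. The secondary granule genes Camp and Ngp, the late neutrophil gene S100a9 and the whey acidic protein family gene Wfdc21 were also far higher in members. Barcodes high in S100a8 and S100a9 were kept among members but not among monocyte barcodes, so this order follows at least in part from the gates. Pooled over the libraries, Camp stood at 26926 CPM in S100-high members, 19.1 CPM in monocyte-marked members and 19.2 CPM in monocyte barcodes. Prss57 and the receptor gene Adgrg3 (24.1 to 55.6 times) were higher in members too. The 12 monocyte genes, which include those that choose monocyte barcodes, summed to 1418 to 2393 CPM in members and to 4516 to 6200 CPM in monocyte barcodes. The endoplasmic reticulum list was higher in members, at 4584 to 5212 CPM, than in neutrophil (1543 to 2634 CPM), monocyte (3078 to 3614 CPM) or B cell barcodes (2739 to 3030 CPM).

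**Figure D4:**
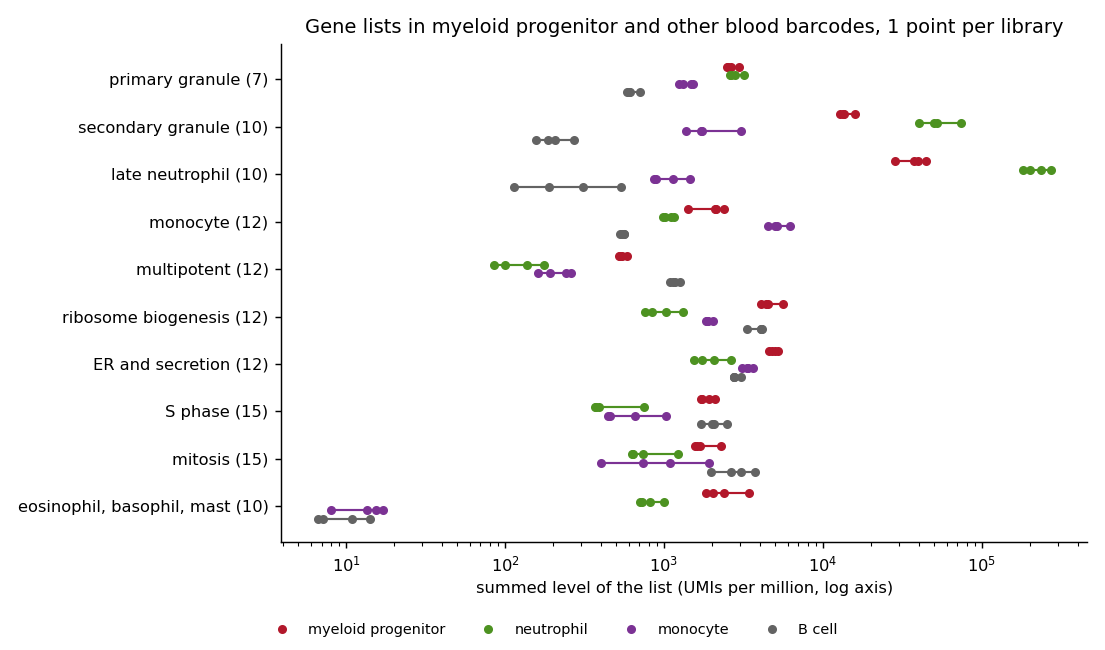
Summed level of 10 gene lists in members and in neutrophil, monocyte and B cell barcodes, in CPM on a log axis, with 1 point per library and the number of genes in brackets; the 4 rule genes are left out of the primary granule list. Members lie above neutrophil and monocyte barcodes for ribosome biogenesis, endoplasmic reticulum and S phase genes, and between them for the secondary granule and late neutrophil lists. The late neutrophil list holds S100a8 and S100a9, which choose neutrophil barcodes and are limited in monocyte barcodes, so its order was largely set by these gates. The monocyte list likewise holds the genes of the monocyte gate.

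The mutant and wild-type members were compared by summing UMIs per library and testing genotype with age in the same edgeR fit, over 8907 genes. In this fit 104 genes were higher in mutant members (1.17% of those tested) and 42 were lower (0.472%), 1.64% in all. With 1 residual degree of freedom, the p-values do not measure the spread between mice: they come from the departure from additivity of 4 libraries, moderated over all genes. Fewer genes passed by the DESeq2 Wald test, with 17 higher and 9 lower. The median log2 difference over all genes tested was 0.0058.

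The listed genes that build and carry out the granulocyte program did not pass the genotype test, which 1.64% of all genes tested passed. None was called among 6 primary granule genes beside the rule genes, 10 secondary granule, 12 multipotent, 12 myeloid transcription factor, 12 monocyte, 11 cytokine receptor, 15 S phase, 15 mitosis, 12 ribosome biogenesis, 12 endoplasmic reticulum and 9 interferon genes tested. Of 10 late neutrophil genes Il1b passed, and of 8 eosinophil, basophil and mast cell genes Prg2 was higher and Cd200r3 lower. At a share of 1.64%, lists of 6 to 15 genes would often hold no call, so the lack of calls does not set these lists apart. At this number of libraries it also does not show that the genes were equal. The median log2 differences were -0.12 for the primary granule list, 0.056 for the secondary granule list, -0.25 for mitosis and 0.49 for the monocyte list, whose 12 members all had positive values. Irf8 stood at 180 and 225 CPM in the mutant members and 156 and 86.4 CPM in the wild-type members (log2 0.70, edgeR adjusted p = 0.273). Gfi1, a repressor needed for neutrophil differentiation, stood at 16.1 and 25.3 CPM against 43.0 and 17.9 CPM (log2 -0.88, edgeR adjusted p = 0.476).

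Of 11 genes of myeloid activation tested, 5 were higher in mutant members and 0 lower, against 1.17% and 0.472% of all genes, with a median log2 difference of 1.06. The list, like the others, was chosen with earlier results of these data known, so its count is a description. Cd14, a co-receptor for bacterial lipopolysaccharide, stood at 139 and 87.3 CPM in mutant members at days 19 and 13 and at 53.0 and 23.8 CPM in wild-type members. Both mutant values lay above both wild-type values, and the log2 difference was 1.55 ± 0.264 (SE, n = 4 libraries; edgeR adjusted p = 0.000555). Cxcl2, a chemokine that attracts neutrophils, stood at 63.1 and 50.5 CPM in mutant members and 14.0 and 17.9 CPM in wild-type members (log2 2.07 ± 0.315, edgeR adjusted p = 0.000122), with UMIs in 71 members. Junb, an AP-1 factor, was at 602 and 611 CPM in mutant members and 391 and 295 CPM in wild-type members (log2 0.87 ± 0.199, edgeR adjusted p = 0.0155). Ptgs2, the inducible cyclooxygenase, rested on 53 and 29 UMIs in the mutant and 21 and 2 in the wild type (log2 1.69 ± 0.416, edgeR adjusted p = 0.0267). Il1b, interleukin 1 beta, passed too (log2 2.46 ± 0.491, edgeR adjusted p = 0.00386), but its values of 41.3 and 10.3 CPM in mutant members and 4.99 and 14.9 CPM in wild-type members overlapped, and at day 13 its log2 ratio was -0.53 (95% counting interval -2.26 to 1.40).

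The activation genes were more abundant in neutrophil barcodes, and their part in these differences was not tested. Cxcl2 stood there at 1653 and 1213 CPM in the mutant libraries at days 19 and 13 and 798 and 1139 CPM in the wild-type libraries, and Cd14 at 765 and 443 CPM and at 521 and 504 CPM. In members with S100a8 plus S100a9 under 100 per 10000 the log2 differences were 1.52 for Cxcl2 (edgeR adjusted p = 0.00342) and 1.40 for Cd14 (edgeR adjusted p = 0.000472). In members at a summed level of 50 or more, Cxcl2 was at 0.21 (edgeR adjusted p = 0.999). By the DESeq2 Wald test none of the 5 passed, with the lowest adjusted p, 0.109, for Cd14. Without the mutant library at day 19, Cd14 (log2 1.03, edgeR adjusted p = 0.285), Junb (edgeR adjusted p = 0.192) and Il1b (log2 0.54, edgeR adjusted p = 0.999) no longer passed. Without the mutant library at day 13, Junb (edgeR adjusted p = 0.171) and Ptgs2 (edgeR adjusted p = 0.578) did not, and without the wild-type library at day 19, Ptgs2 (edgeR adjusted p = 0.221) and Il1b (log2 1.13, edgeR adjusted p = 0.329) did not.

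Hebp1, which encodes a haem-binding protein, rose in mutant members. It stood at 95.03 and 81.5 CPM in mutant members at days 19 and 13 and at 9.97 and 23.8 CPM in wild-type members, with UMIs in 200 members, and the groups did not overlap. The log2 difference was 2.91 ± 0.335 (SE, n = 4 libraries; edgeR adjusted p = 2.45e-06), and it passed under all 9 alternatives tried, with log2 values of 2.70 to 3.17. With each library left out it passed too, at 1.98 without the wild-type library at day 19 and up to 3.21. In B cell barcodes it stood at 16.6 and 11.9 CPM in the mutant and 12.3 and 12.7 CPM in the wild type, and in neutrophil barcodes at 26.0 and 35.2 CPM and at 8.56 and 11.4 CPM. Monocyte barcodes held it near the members' levels, at 106 and 77.7 CPM in the mutant and 7.35 and 35.0 CPM in the wild type.

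Snhg12, a long non-coding RNA that hosts small nucleolar RNAs, fell in mutant members. It stood at 26.2 and 23.0 CPM in mutant members at days 19 and 13 and at 159 and 226 CPM in wild-type members (log2 -2.80 ± 0.262, edgeR adjusted p = 6.75e-08). Apobec3, a cytidine deaminase that restricts retroviruses, fell to 12.4 and 17.2 CPM in mutant members, against 76.4 and 68.5 CPM in wild-type members (log2 -2.36 ± 0.303, edgeR adjusted p = 1.24e-05). Stmn1, stathmin, which destabilises microtubules in dividing cells, was at 338 and 353 CPM in mutant members and 901 and 819 CPM in wild-type members (log2 -1.27 ± 0.192, edgeR adjusted p = 0.000116). All 3 passed under all 9 alternatives. Tomm22, of the mitochondrial import channel, was at 80.9 and 76.9 CPM in mutant members and 176 and 167 CPM in wild-type members (log2 -1.07 ± 0.228, edgeR adjusted p = 0.00746), and it did not pass without either mutant library or by DESeq2 (adjusted p = 0.417). Snhg12, Apobec3, Stmn1 and Tomm22 were also lower in both mutant libraries than in both wild-type libraries among neutrophil and among B cell barcodes. For Stmn1 in neutrophil barcodes the day 13 values were close, with 78.7 and 82.6 CPM in the mutant at days 19 and 13 and 337 and 84.7 CPM in the wild type. Hist1h3c, a replication histone with near-identical copies, passed as lower, but at day 13 its interval included no difference (log2 -0.30, 95% counting interval -1.14 to 0.60).

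**Figure D5:**
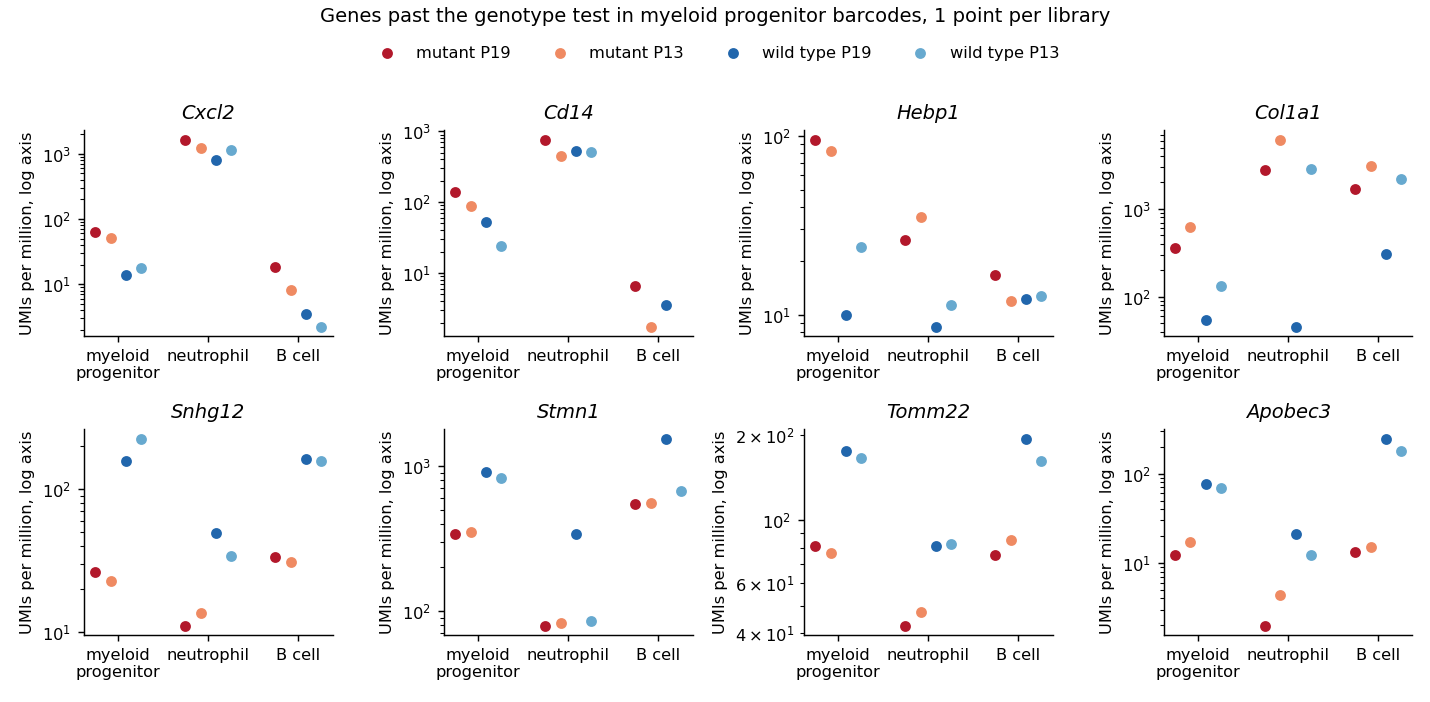
Levels of 8 genes that passed the genotype test in members, in CPM on log axes, with 1 point per library, beside neutrophil and B cell barcodes. Cxcl2 and Cd14 are higher in mutant members and more abundant in neutrophil barcodes. Col1a1 is higher in every other class than in members of the same library except in the wild-type day 19 neutrophil barcodes. Snhg12, Stmn1, Tomm22 and Apobec3 are lower in the mutant libraries in all 3 classes, by little for Stmn1 in day 13 neutrophil barcodes. The Cd14 value of 0 in wild-type day 13 B cell barcodes is not drawn.

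Some calls rested on few barcodes or on genes with no count in 1 genotype. Stfa1, a stefin of a family of near-identical copies, had 0 UMIs in both sets of mutant members, against 514 and 164 UMIs (160 and 489 CPM) in wild-type members at days 19 and 13, held by 33 and 7 barcodes, and did not pass by DESeq2 (adjusted p = 0.719). With 0 set to 3 counts per library it was at least 159 times lower at day 19 and at least 142 times lower at day 13, and in neutrophil barcodes it stood at 4.69 and 152 CPM in the mutant and 1538 and 10694 CPM in the wild type. Trbc1, a constant segment of the T cell receptor whose copy Trbc2 is near-identical, had 147 and 53 UMIs in mutant members and 0 in both sets of wild-type members (edgeR adjusted p = 1.15e-08), and it was highest in basophil-mast members, at 250 CPM pooled over the libraries, with 83.0 CPM in early-marked members. Prg2 had 1211 and 646 UMIs in mutant members, in 17 and 2 barcodes, and 292 and 0 UMIs in wild-type members, with a log2 difference of 3.25 ± 0.434 (edgeR adjusted p = 2.11e-05) that did not pass with genotype alone (edgeR adjusted p = 0.111). Cd200r3, a basophil receptor, passed as lower (edgeR adjusted p = 0.00808), with 6 and 5 UMIs in mutant members and 71 and 3 in wild-type members, and did not pass without the mutant library at day 19 (edgeR adjusted p = 0.782).

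Skeletal genes were also among the calls. Of the 11 bone and connective tissue genes tested in members, 9 were higher in the mutant and 0 lower. Of the 14 cartilage genes 1 was higher and 7 lower. Over all genes tested, 1.17% were higher and 0.472% lower. Col1a1, of type I collagen, stood at 355 and 629 CPM in mutant members at days 19 and 13 and at 53.9 and 131 CPM in wild-type members (log2 2.57 ± 0.224, edgeR adjusted p = 1.65e-08). In B cell barcodes, which do not make collagen, it stood at 1696 and 3098 CPM in the mutant libraries and 303 and 2167 CPM in the wild-type libraries. Col9a2, of cartilage collagen, stood at 46.3 and 67.8 CPM in mutant members and 125 and 450 CPM in wild-type members, and in B cell barcodes at 137 and 167 CPM in the mutant and 222 and 735 CPM in the wild type. In monocyte barcodes it stood at 548 and 893 CPM in the mutant and 217 and 1689 CPM in the wild type, the opposite order at day 19. Rbp4, Chad, Spp1, Col6a3, Col1a2 and Col5a2 were higher and Col9a3, Acan and Col11a2 lower in the mutant members. Ibsp, bone sialoprotein, was at 2792 CPM in mutant members at day 13, where 1 barcode gave 76.9% of the UMIs of all libraries.

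Over all calls, 95 of the 104 higher and 38 of the 42 lower genes had a mean level in B cell barcodes of at least 20% of that in members (91.3% and 90.5%), against 95.7% of all genes tested, so this share does not set the called genes apart. The summed cartilage list was 2460 and 3558 CPM in mutant members and 2530 and 9472 CPM in wild-type members, and the summed bone and connective tissue list 2203 and 6532 CPM and 848 and 2068 CPM. Erythroid genes, led by haemoglobin, summed to 4980 and 3821 CPM in mutant members and 22344 and 7777 CPM in wild-type members. Of the 8 tested, 6 were lower in the mutant, against 0.472% of all genes tested. The part of free RNA and of mixed droplets in these differences was not tested. Leaving out the other-lineage, basophil-mast and eosinophil states gave 106 higher and 30 lower genes.

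Day 19 and day 13 members were compared in the same fit, and 9 genes were higher at day 19 (0.101% of 8907) and 37 lower (0.415%), 0.516% in all. The 9 include Elane, a gene of the rule, whose call is not read as a result. Among the genes higher at day 19, 5 were erythroid, of 8 tested. Among the lower ones 8 were of cartilage, of 14 tested, and 5 of bone and connective tissue, of 11 tested. Retnlg, resistin-like gamma, a gene of late neutrophils, stood at 316 CPM in mutant members at day 19 and 5.74 CPM at day 13, and at 117 CPM in wild-type members at day 19 and 32.8 CPM at day 13 (log2 3.98 ± 0.467, edgeR adjusted p = 1.74e-05). In neutrophil barcodes it stood at 16229 and 11617 CPM in the mutant and 15263 and 13597 CPM in the wild type, and in members with little S100a8 and S100a9 its difference was 2.55 (edgeR adjusted p = 0.114). Ifitm1, an interferon-induced membrane protein, was at 132 CPM at day 19 and 441 CPM at day 13 in mutant members and at 96.3 and 256 CPM in wild-type members (log2 -1.57 ± 0.213, edgeR adjusted p = 0.000124). Ifitm1 was at 2365 CPM in basophil-mast members pooled over the libraries, and without the other-lineage, basophil-mast and eosinophil states its difference was -0.047 (edgeR adjusted p = 0.999). Car2 was higher at day 19, and Col27a1, Col9a1, Hapln1, Cdkn1c and Acan were lower. No gene passed with age alone in the model by edgeR, where 146 were higher and 204 lower at an unadjusted p under 0.05, nor without either day 13 library, and DESeq2 called 0 higher and 7 lower.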

How the data were processed

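The authors deposited 4 libraries as tables of unnormalized UMI counts, made with Cell Ranger 3.1.0 per the file headers, on mm10 per the submitters' processing notes, which also name Seurat 3 with no role. Of 31053 features, 31011 matched GENCODE M21. Libraries held 70507107 to 76080803 UMIs in 8053 to 12714 barcodes, and members 335624 to 3208851 UMIs.

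Groups came from the sample titles. Counts were summed per library over members and tested with edgeR 4.0.16 (R 4.3.3, limma 3.58.1): quasi-likelihood, TMM, filterByExpr by genotype, additive genotype and age, Benjamini-Hochberg over all genes, threshold 0.05. DESeq2 1.42.0 was an alternative. SE is that of the log2 difference. CPM uses plain totals. Within an age nothing was tested, since each group is a lone library: log2 ratios have exact Poisson 95% intervals and shares Clopper-Pearson ones. Ages and genotypes share libraries in the 2 comparisons. The fit was also run on simulated counts with a common dispersion for all genes and no library or mixed-droplet effects. That run therefore does not show how the fit behaves on these libraries.

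Scrublet (scanpy 1.11.5) scored doublets; its automatic threshold called 0 barcodes in 2 libraries, so the top 5% of scores per library were used, 33 members in all, kept in the main results. B cell barcodes held 10 or more of Cd79a, Cd79b, Vpreb3 and Ebf1 per 10000 UMIs.

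The members, the 21 gene lists and the tests were chosen with earlier results of these data known, and the states and doublet threshold after the values were seen. Named genes are list members past the test or highest in level, the 10 largest genotype differences and 6 largest age differences each way at 50 CPM or more in the higher group at both ages (for age, in both genotypes), and the 10 highest against neutrophil and monocyte barcodes, without mitochondrial, ribosomal, haemoglobin, Gm or Rik names. Genes described within states were chosen after their values were seen. Promoters are from RefSeq (GRCm38.p6).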

Additional observations from a re-analysis of the deposited data

How the results depend on the processing

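No paired analysis was possible because each genotype and age is 1 library, and the number 1 in each pairs nothing. The counts of genotype calls, 104 higher and 42 lower, were 17 and 9 by the DESeq2 Wald test, 16 and 11 with genotype alone, and 69 higher with doublets left out. With each library left out in turn and genotype alone in the model they were 66 and 26 without the mutant library at day 19, 62 and 38 without that at day 13, 191 and 87 without the wild-type library at day 19, and 306 and 168 without that at day 13. The counts of age calls, 9 higher and 37 lower, were 0 and 7 by DESeq2, 0 and 0 with age alone, 2 and 8 without doublets, and 23, 18 and 3 higher with no filter on low counts, at a summed level of 50 or more and with 2000 UMIs or more. With each library left out and age alone they ran from 0 to 22 higher and from 0 to 79 lower. The causes were not tested.

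Member shares of kept barcodes moved with the rule. At 1000 genes or more they were 3.65% in the mutant and 3.85% in the wild-type library at day 19. At a summed level of 5 or more they were 4.35% and 1.36% in the mutant libraries at days 19 and 13 and 4.78% in the wild type at day 19. At 20 or more they were 2.23% (mutant) and 2.22% (wild type) at day 19. At 50 or more they were 1.76% and 0.538% in the mutant and 1.67% in the wild type at day 19. Of blood barcodes they were 6.25%, 3.43%, 4.49% and 2.50% in the mutant (days 19 and 13) and wild-type libraries (days 19 and 13). Without the other-lineage, basophil-mast and eosinophil states they were 2.12% and 0.606% in the mutant and 2.10% in the wild type at day 19. The order of the ages was the same in all of these.

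Shares with a UMI grow with depth. At 4000 UMIs Ms4a3 was in 58.9% and 50% of mutant and 64.8% and 60% of wild-type members at days 19 and 13. Cd34 was in 17.8% of mutant and 20% of wild-type members at day 19. Mki67 was in 38.1% and 50% of mutant and 51.5% and 50% of wild-type members at days 19 and 13. Unthinned, Ms4a3 was in 65.2% and 59.4% of mutant members, Cd34 in 26.4% and 31.2% of mutant and 28.6% and 39.1% of wild-type members, and Mki67 in 57.2% and 67.2% of mutant and 75.4% and 73.9% of wild-type members. The 23 wild-type members at day 13, with 335624 UMIs, limit every comparison that uses them.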
